A study of Mus musculus with 11 samples.

Results

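Genes of antigen presentation were examined in RNA-Seq of kidney tissue from aged mice with and without tubular *Cpt1a*. The members were all protein-coding genes whose symbol begins with H2-, the mouse major histocompatibility complex (MHC), together with *B2m*, *Cd74*, *Tap1*, *Tap2*, *Tapbp*, *Ciita*, *Nlrc5*, *Psmb8*, *Psmb9* and *Psmb10*. This gave 44 genes of 22058 protein-coding genes and of 53801 genes listed in all. They comprised 24 class I heavy chains, 10 class II chains and class II accessory genes, the class I light chain *B2m*, 6 genes of peptide supply, 2 transcriptional activators and *H2-Ke6*, a gene of the region that encodes no presenting molecule. Of the 44 members, 31 had enough reads to be tested.

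The series held 1 library from each of 6 Cpt1aCKO mice and 5 floxed control mice, all male, on a mixed background and aged for 2 years. Cpt1aCKO mice carried floxed *Cpt1a* with Pax8-rTTA and tetO-Cre, so that doxycycline removed the gene from renal tubules, and floxed controls carried the floxed allele. Both genotypes received doxycycline food for 3 weeks at 5 to 8 weeks of age. The driver acts in tubule epithelium, whereas the libraries hold the RNA of every cell type in the tissue, so fewer cells of a type and less RNA per cell cannot be told apart. Libraries held 43027049 to 57459929 counted reads in Cpt1aCKO mice and 39628721 to 56241595 in floxed controls. *Cpt1a* itself had 38.4 to 97.3 counts-per-million (CPM) in Cpt1aCKO mice, against 418 to 548 CPM in floxed controls, with no overlap. Proximal tubule markers summed to 9944 to 13105 CPM in Cpt1aCKO mice and 10745 to 13044 CPM in floxed controls, as a check of the tissue. Of the Cpt1aCKO libraries, that of mouse S7602 stood apart, with many low-count genes at their highest level there and several members at their lowest.

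Class I molecules present peptides from the cytosol to CD8+ T cells on nearly every cell type. Their heavy chain pairs with B2m, and their peptides are cut by the immunoproteasome (*Psmb8*, *Psmb9*, *Psmb10*), pumped into the endoplasmic reticulum by *Tap1* and *Tap2* and loaded with the help of *Tapbp*. Class II molecules present peptides from endosomes to CD4+ T cells, chiefly on macrophages, dendritic cells and B cells, and tubule epithelium can also express them after interferon-γ. *Cd74*, the invariant chain, guards the class II groove until H2-DM exchanges it for peptide. *Nlrc5* is the known activator of class I genes and *Ciita* that of class II genes, and both act through a complex bound to X and Y boxes in the promoters.

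Transcript levels per exon length, as transcripts-per-million (TPM), spanned several orders of magnitude. *B2m* was the highest, with a median of 978 TPM over the 11 mice, followed by *Cd74* at 627 TPM, *H2-D1* at 501 TPM and *H2-K1* at 264 TPM. The class II chains *H2-Ab1*, *H2-Eb1* and *H2-Aa* had medians of 205, 147 and 68.4 TPM. Both activators were low, with 1.39 TPM for *Ciita* and 0.803 TPM for *Nlrc5*. Neighbours in this order mostly overlapped over mice. *Cd74* ran over 380 to 1002 TPM and *H2-D1* over 310 to 750 TPM, and *H2-Eb1* could not be separated from *H2-T23*, a nonclassical class I heavy chain, at 147 TPM each. Classical class I chains summed to 840 ± 221 TPM in Cpt1aCKO mice and 708 ± 91.8 TPM in floxed controls, and class II chains to 501 ± 115 TPM in Cpt1aCKO mice and 350 ± 67.5 TPM in floxed controls (SD, n = 6 and 5, as for all means below).

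**Figure D1:**
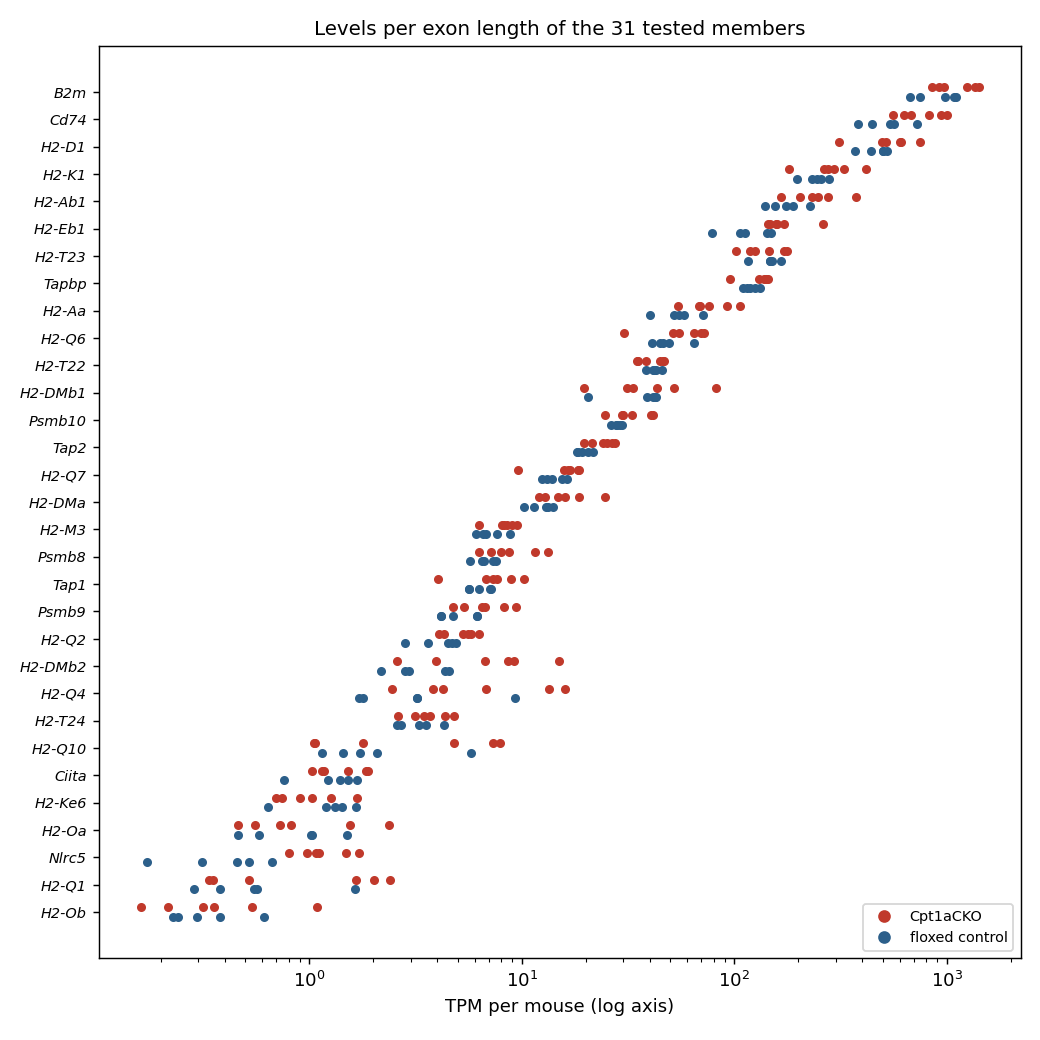
TPM of the 31 tested members in each mouse on a log axis, with a red point per Cpt1aCKO mouse above a blue point per floxed control mouse, ordered by the median over all 11 mice. *B2m*, *Cd74* and *H2-D1* lead, at medians of 978, 627 and 501 TPM, and the activators *Ciita* and *Nlrc5* lie near 1 TPM.

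Letters like the X and Y boxes, through which Nlrc5 and Ciita are recruited, were found in promoters of class I heavy chains and class II accessory genes, and these stretches are shown to compare them. In RefSeq promoters (GRCm38.p6, 250 bases before to 50 after the start, both strands searched), 37 of 44 members matched, with 40 promoters, while *Cd74*, *Ciita*, *H2-Ab1*, *H2-Q1*, *H2-T24*, *Nlrc5* and *Tap2* did not. X box-like letters CCNNGNNAC followed within 15 to 40 bases by the Y box ATTGG on the same strand stood in 10 of 40 member promoters (25.0%), against 479 of all 32851 promoters (1.46%). Many of these genes are paralogs, so their promoters share sequence. Capitals mark the X box-like letters and, where shown, the Y box. *H2-D1*, *H2-DMb1* and *H2-Oa* are cut after the X box.
H2-D1 (class I, chr17:35262977-35263000, + strand): tctgCCGGGACACtgatgacgcgc
H2-Q4 (class I, chr17:35379499-35379544, + strand): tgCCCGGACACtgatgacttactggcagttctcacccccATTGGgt
H2-Q6 (class I, chr17:35424733-35424777, + strand): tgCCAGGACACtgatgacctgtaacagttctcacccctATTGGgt
H2-Q7 (class I, chr17:35439077-35439121, + strand): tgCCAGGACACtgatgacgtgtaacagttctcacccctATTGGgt
H2-M3 (class I, chr17:37270174-37270219, + strand): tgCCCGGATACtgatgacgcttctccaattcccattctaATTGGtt
H2-DMb1 (class II accessory, chr17:34153089-34153112, + strand): tttaCCTAGTAACtgatgatgcta
H2-Oa (class II accessory, chr17:34092295-34092318, + strand): cttgCCCAGCAACaaacccattat
H2-Ob (class II accessory, chr17:34238812-34238854, + strand): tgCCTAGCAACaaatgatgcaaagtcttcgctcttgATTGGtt

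Between the boxes lay 28 bases in *H2-D1*, *H2-Q4*, *H2-M3*, *H2-DMb1* and *H2-Oa*, 27 in *H2-Q6* and *H2-Q7* and 25 in *H2-Ob*. The X box-like letters followed at once by TGATGA were found in *H2-D1*, *H2-Q4*, *H2-Q6*, *H2-Q7*, *H2-M3* and *H2-DMb1*, and in 15 of all 32851 promoters (0.05%). κB-like letters (GGG, any 2 bases, TTCCC) stood in 8 of 40 member promoters, among them those of *H2-K1*, *H2-D1* and *H2-Aa*, against 1.75% of all promoters. Interferon-response-like letters (TTTC, any 2 bases, TTTC) stood in 3 of 40, among them *B2m*, against 3.44% of all. These matches describe letters in the window only. *H2-Ke6* and *H2-M10.4* were the other members with both boxes. The class I chain *H2-K1*, the class II chains *H2-Aa*, *H2-Eb1* and *H2-Eb2*, and *H2-DMa* and *H2-DMb2* lacked this combination in the window.

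Before adjustment for the number of genes tested, *Nlrc5* and 6 of the 9 class II genes tested were higher in Cpt1aCKO mice. By edgeR's quasi-likelihood test, 9 of the 31 members were higher in Cpt1aCKO mice at an unadjusted p under 0.05 and 0 were lower, against 3.35% higher and 2.57% lower among all 18160 genes tested (609 and 467 genes, or 846 and 325 when only library size was scaled). They were *Nlrc5*, the class II genes *H2-DMb2*, *H2-Eb1*, *Cd74*, *H2-Ab1*, *H2-Aa* and *H2-DMa*, and the peptide supply genes *Tap2* and *Psmb8*. The log2 fold change (Cpt1aCKO over floxed control) was positive in 28 members and negative in *H2-T22*, *H2-T23* and *H2-Ke6*, and its median was 0.22, against 51.4% positive and a median of 0.01 over all genes. With Benjamini-Hochberg adjustment over all genes, 0 members passed by edgeR (0.011% of genes were higher and 0.00551% lower), and the smallest adjusted p among members was 0.388, for *Nlrc5*. DESeq2 called 1 member, *Nlrc5* (adjusted p = 0.00352), and voom 0, and the adjusted p of *Nlrc5* over all alternatives ran over 0.00352 to 0.822. The count of 9 depended on single mice. It was 3 without floxed control S2152, 5 without floxed control S7762, 5 without Cpt1aCKO S2155, 6 without Cpt1aCKO S2397 and 13 without Cpt1aCKO S7602.

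**Figure D2:**
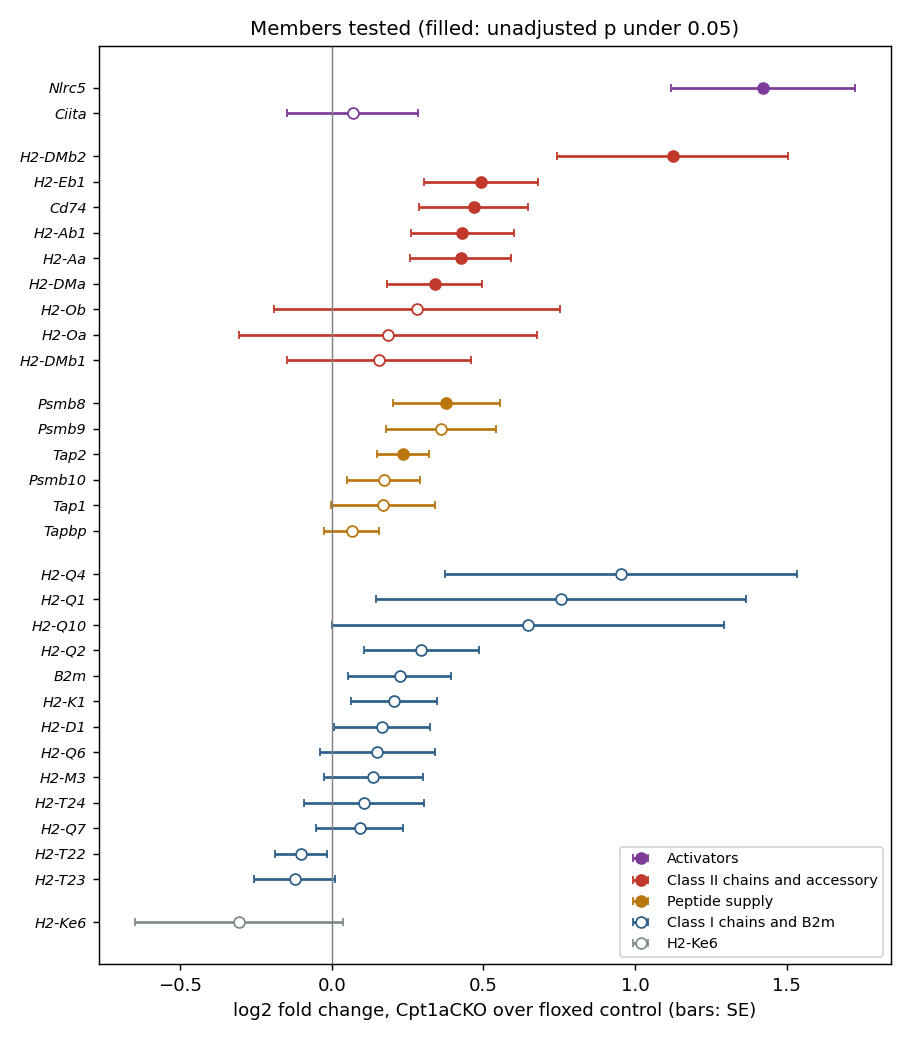
Log2 fold change of each tested member, Cpt1aCKO over floxed control, with bars for the SE, grouped by role. Filled points are the 9 members at an unadjusted edgeR p under 0.05. All 9 class II genes lie right of 0, as do 10 of the 12 class I heavy chains, and no class I heavy chain is filled.

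Of the 9 class II genes tested, 6 were higher in Cpt1aCKO mice at an unadjusted p under 0.05, against 3.35% of all genes. The median log2 fold change was 0.42, and none of the 9 passed after adjustment over all genes. *Cd74* had 353 to 618 CPM in Cpt1aCKO mice (median 450), against 270, 367, 250, 328 and 469 CPM in floxed controls. Means were 466 ± 103 CPM in Cpt1aCKO mice and 337 ± 87.4 CPM in floxed controls, a log2 fold change of 0.47 (SE 0.18, unadjusted edgeR p = 0.0214, adjusted 0.772, exact permutation p = 0.0476). Floxed mouse S2578 lay above 3 of the 6 Cpt1aCKO mice, so the groups overlapped.

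*H2-Ab1* and *H2-Aa* encode the chains of the I-A molecule. *H2-Ab1* had 160 to 332 CPM in Cpt1aCKO mice (median 215), against 163, 153, 140, 174 and 226 CPM in floxed controls. Its log2 fold change was 0.43 (SE 0.17, unadjusted edgeR p = 0.0249, exact permutation p = 0.0584). Mouse S2155 was the highest at 332 CPM, and 3 of the 6 Cpt1aCKO mice lay within the range of the floxed controls. *H2-Aa* had 77.7 to 148 CPM in Cpt1aCKO mice (median 101), against 71.4, 85.1, 59.5, 75.5 and 105 CPM in floxed controls, a log2 fold change of 0.42 (SE 0.17, unadjusted edgeR p = 0.025, exact permutation p = 0.0628). Only 2 Cpt1aCKO mice lay above the highest floxed control, S2578.

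*H2-Eb1*, the β chain of I-E, had 105 to 186 CPM in Cpt1aCKO mice (median 109), against 75.1, 107, 59.7, 78.7 and 112 CPM in floxed controls. Mouse S2397 stood alone at 186 CPM, with the other 5 Cpt1aCKO mice at 105 to 115 CPM and floxed S7601 and S2578 inside that range. The log2 fold change was 0.49 (SE 0.19, unadjusted edgeR p = 0.0207, exact permutation p = 0.0346). These class II values moved with individual mice. Mouse S2397 had the highest *Cd74*, *H2-Aa* and *H2-Eb1* of all 11, and floxed S7762 the lowest of all 4 genes.

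Among the accessory genes, *H2-DMb2*, a β chain of the peptide exchanger H2-DM, had 1.54 to 9.60 CPM in Cpt1aCKO mice (median 4.91), against 1.39, 3.06, 1.93, 2.75 and 2.00 CPM in floxed controls. Its log2 fold change was 1.12 (SE 0.38, unadjusted edgeR p = 0.0108, exact permutation p = 0.0693), with 4 Cpt1aCKO mice above the highest floxed control and 2 within the floxed range. *H2-DMa*, the α chain, averaged 20.4 ± 5.16 CPM in Cpt1aCKO mice and 16.1 ± 2.16 CPM in floxed controls (log2 fold change 0.34, SE 0.16, unadjusted edgeR p = 0.0466, exact permutation p = 0.104). *H2-DMb1*, a close paralog of *H2-DMb2* that may share reads with it, had a log2 fold change of 0.16 with an SE of 0.30. *H2-Oa* and *H2-Ob*, which form H2-DO, an inhibitor of H2-DM best known from B cells, lay near 1 CPM or below and had SEs of 0.49 and 0.47.

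The class II count also turned on single mice. It was 1 of 9 without floxed control S2152, 3 without floxed control S7762, 3 without Cpt1aCKO S2155, and 4 without Cpt1aCKO S2397, where *Cd74*, *H2-Ab1*, *H2-DMb2* and *H2-Eb1* passed. *H2-DMb2* passed each time, and its levels in mice S2394, S2397, S7602 and S7601 are taken up below. Without S2152 the log2 fold changes of *Cd74*, *H2-Ab1*, *H2-Aa* and *H2-Eb1* were 0.40, 0.42, 0.39 and 0.45, and none of these passed.

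None of the 12 class I heavy chains tested passed at an unadjusted p under 0.05 by edgeR, DESeq2 or voom. Their log2 fold change was positive in 10 of the 12, against 51.4% of all genes, and its median was 0.16. *H2-D1*, a classical heavy chain, had 302 to 670 CPM in Cpt1aCKO mice (median 506), against 469, 366, 443, 484 and 499 CPM in floxed controls. The log2 fold change was 0.17 (SE 0.16, unadjusted edgeR p = 0.316, exact permutation p = 0.522). *H2-K1*, the other classical chain, had 201 to 421 CPM in Cpt1aCKO mice (median 309), against 272, 224, 266, 296 and 280 CPM in floxed controls. Its log2 fold change was 0.21 (SE 0.14, unadjusted edgeR p = 0.165, exact permutation p = 0.314). Both chains were highest in mouse S2155 and lowest in mouse S7602, Cpt1aCKO mice that bracketed all floxed controls. Without S7602, *H2-K1* and *H2-D1* had log2 fold changes of 0.30 and 0.28 and passed at an unadjusted edgeR p under 0.05, and without S2155 they had 0.0955 and 0.0701 and did not.

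The 2 classical chains kept close proportions, with an *H2-K1* to *H2-D1* CPM ratio of 0.523 to 0.667 over the 11 mice. *B2m* did not follow them closely. It had 247 to 420 CPM in Cpt1aCKO mice (median 355), against 305, 368, 364, 209 and 249 CPM in floxed controls, with a log2 fold change of 0.22 (SE 0.17, unadjusted edgeR p = 0.209, exact permutation p = 0.281). Its TPM ratio to the classical heavy chains ran over 0.904 to 1.87 in Cpt1aCKO mice and 0.841 to 1.96 in floxed controls. In contrast, the ratio of *Cd74* to the class II chains was 1.46 to 1.72 in Cpt1aCKO mice and 1.33 to 1.61 in floxed controls.

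Nonclassical class I chains summed to 291 ± 43.0 CPM in Cpt1aCKO mice and 294 ± 20.5 CPM in floxed controls. The largest part of this was *H2-T23*, which encodes Qa-1b, the ligand of CD94/NKG2A. It had 146 ± 30.8 CPM in Cpt1aCKO mice and 159 ± 20.9 CPM in floxed controls (log2 fold change -0.12, SE 0.13). *H2-T22*, which some γδ T cells recognise, had a log2 fold change of -0.10 (SE 0.09). *H2-Q6* and *H2-Q7*, which encode Qa-2 molecules, had 0.15 and 0.09, with SEs of 0.19 and 0.14. Class I heavy chains are near-identical in places, and reads could be split between them in counting.

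Whether class II changed more than class I was tested directly for each pair of a class II chain and a classical class I chain. The log2 ratio of class II to class I was higher in Cpt1aCKO mice for all 6 pairs, by 0.23 to 0.37. Exact permutation p ran over 0.102 to 0.284, and was 0.284 in each case after adjustment over the 6 pairs, so a difference between the classes was not shown. For *H2-Ab1* over *H2-D1* the mean log2 ratio was -1.13 ± 0.28 in Cpt1aCKO mice and -1.41 ± 0.21 in floxed controls. The TPM ratio of class II chains to classical class I chains was 0.617 ± 0.149 in Cpt1aCKO mice and 0.50 ± 0.107 in floxed controls, and the groups overlapped.

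**Figure D3:**
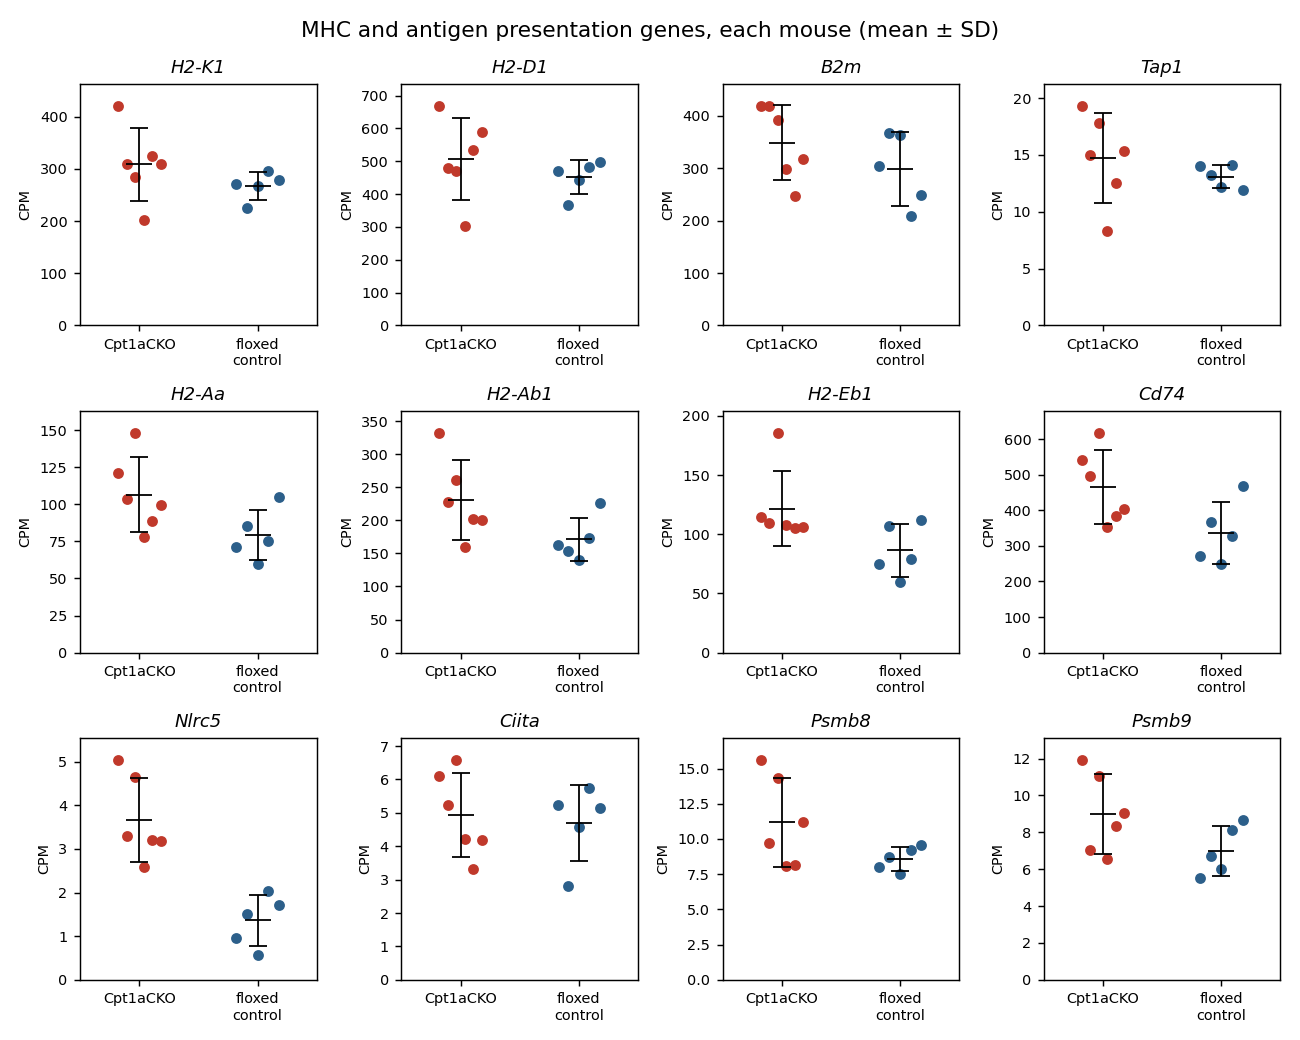
CPM of 12 members in each of 6 Cpt1aCKO mice (red, left) and 5 floxed control mice (blue, right), with black marks for the mean and SD. *Nlrc5* is the member whose groups do not overlap, at 2.58 to 5.04 CPM in Cpt1aCKO mice and 0.573 to 2.04 CPM in floxed controls, while *Ciita* overlaps throughout.

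Of the 2 activators, *Nlrc5* passed at an unadjusted p under 0.05 and *Ciita* did not. *Nlrc5* had 2.58 to 5.04 CPM in Cpt1aCKO mice (median 3.25), against 0.965, 1.5, 0.573, 2.04 and 1.72 CPM in floxed controls. Every Cpt1aCKO mouse lay above every floxed control, which held for 0.341% of all genes tested, and among members for *Nlrc5* alone. No member lay below every floxed control in all Cpt1aCKO mice, as 0.27% of genes did. These levels rest on 112 to 248 reads per Cpt1aCKO mouse and 27 to 115 reads per floxed control mouse.

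The log2 fold change of *Nlrc5* was 1.42 (SE 0.30, unadjusted edgeR p = 0.000331, exact permutation p = 0.00216). The edgeR p ranked 15th of all genes, and the exact p is the smallest that splits of these mice can give. The fold change ran over 1.23 to 1.62 when single mice were left out, and *Nlrc5* passed at an unadjusted p under 0.05 each time. *Nlrc5* lies on chromosome 8, away from the MHC, as does *Ciita* on chromosome 16.

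*Ciita* had 3.31 to 6.58 CPM in Cpt1aCKO mice (median 4.72), against 5.24, 2.81, 4.57, 5.75 and 5.14 CPM in floxed controls. Its log2 fold change was 0.07 (SE 0.22, unadjusted edgeR p = 0.752, exact permutation p = 0.766), and it turned to -0.07 without floxed control S7601, the lowest mouse. The difference between the 2 activators was not tested.

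All 6 genes of peptide supply had a positive log2 fold change, with a median of 0.20, against 51.4% positive among all genes. Of the 6, 2 were higher at an unadjusted p under 0.05, against 3.35% of all genes, and none passed after adjustment over all genes. *Tap2* had 27.9 to 36.9 CPM in Cpt1aCKO mice (median 32.6), against 26.4, 31.5, 26.8, 27.9 and 26.9 CPM in floxed controls. Its log2 fold change of 0.23 was small but its spread was narrow (SE 0.09, unadjusted edgeR p = 0.0162, exact permutation p = 0.0216). *Tap1*, its partner in the transporter, had 8.30 to 19.3 CPM in Cpt1aCKO mice (median 15.2), against 14, 13.2, 12.1, 14.1 and 11.9 CPM in floxed controls. Its log2 fold change was 0.17 (SE 0.17, unadjusted edgeR p = 0.339, exact permutation p = 0.591), with Cpt1aCKO mouse S2155 the highest and S7602 the lowest of all mice. Without S7602 it was 0.29 and passed at an unadjusted edgeR p under 0.05, and without S2155 it was 0.0765 and did not.

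The immunoproteasome subunits *Psmb8* and *Psmb9* were alike. *Psmb8* had 8.05 to 15.6 CPM in Cpt1aCKO mice (median 10.5), against 7.99, 8.69, 7.54, 9.20 and 9.60 CPM in floxed controls (log2 fold change 0.38, SE 0.18, unadjusted edgeR p = 0.0499, exact permutation p = 0.123). *Psmb9* had 6.53 to 11.9 CPM in Cpt1aCKO mice (median 8.69), against 5.52, 6.72, 5.99, 8.10 and 8.69 CPM in floxed controls (log2 fold change 0.36, SE 0.18, unadjusted edgeR p = 0.0652, exact permutation p = 0.110). Mice S2155 and S2397 were the highest in both. *Psmb10* and *Tapbp* had log2 fold changes of 0.17 and 0.07 and did not pass. Exons of *Tap1* and *Psmb9* overlap by 212 bases on opposite strands in GENCODE M21. Members at an unadjusted p under 0.05 also share exon bases with genes on the opposite strand. The largest shares were 14.7% of *Psmb8* with *Gm20496*, 14.1% of *Tap2* with *Gm15821* and 10.4% of *H2-DMa* with *Brd2*. The sources used here do not say how counting treated strand.

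By the SD of log2 CPM over the 11 mice, the largest spread within the members was in *H2-Q10*, *H2-Q1* and *H2-Q4*, at 1.14, 1.11 and 1.09, and the high mice were of both genotypes. By the ratio of the highest to the lowest mouse, *Nlrc5* was first at 8.79, ahead of these at 7.94 to 8.60. *H2-Q10*, which encodes a secreted class I molecule made chiefly in liver, had 7.84, 11.5 and 12.7 CPM in Cpt1aCKO mice S7602, S2394 and S2397 and 9.73 CPM in floxed mouse S7601, against 1.55 to 2.7 CPM in the other Cpt1aCKO mice and 1.79 to 3.29 CPM in the other floxed controls. The same 4 mice were the highest for *H2-Q4*, at 6.65, 15, 12.8 and 9.34 CPM, and for *H2-Q1*, at 1.79, 2.06, 2.51 and 1.81 CPM. They were also the highest for *H2-T3*, the thymus leukemia antigen gene, which was too low to be tested, with 20, 53, 42 and 54 reads, against 0 to 7 reads in the other 7 mice.

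In those 4 mice *H2-T22*, *H2-T23* and *H2-DMb1* were the lowest. *H2-DMb1* had 12.4, 20.2 and 19.2 CPM in Cpt1aCKO mice S7602, S2394 and S2397 and 13.3 CPM in floxed S7601, against 27.9 to 47.7 CPM in the other Cpt1aCKO mice and 23.6 to 28.1 CPM in the other floxed controls. The classical chains did not divide the mice this way, and *H2-K1* in S2394, at 310 CPM, lay above all floxed controls. *H2-DMb2* had 4.44, 5.39 and 9.60 CPM in Cpt1aCKO mice S7602, S2394 and S2397, and 3.06 CPM in S7601, the highest floxed control. Cpt1aCKO mouse S2155, outside the set, had 5.57 CPM of it, and all other mice 1.39 to 2.75 CPM. Of the 4 mice, 3 were Cpt1aCKO, and their part in the genotype difference, that of *H2-DMb2* included, was not tested. *H2-Q4*, *H2-Q1* and *H2-Q10* had log2 fold changes of 0.95, 0.76 and 0.65. The SEs were 0.58, 0.61 and 0.65, and exact permutation p was 0.167, 0.433 and 0.532. Without floxed S7601, *H2-Q4* and *H2-Q1* had 1.61 and 1.39 and passed at an unadjusted edgeR p under 0.05, and *H2-Q10* had 1.28 and did not. Without Cpt1aCKO S2397 *H2-Q4*, *H2-Q1* and *H2-Q10* had 0.72, 0.44 and 0.32, and without Cpt1aCKO S2394 they had 0.62, 0.56 and 0.39, and none passed.

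**Figure D4:**
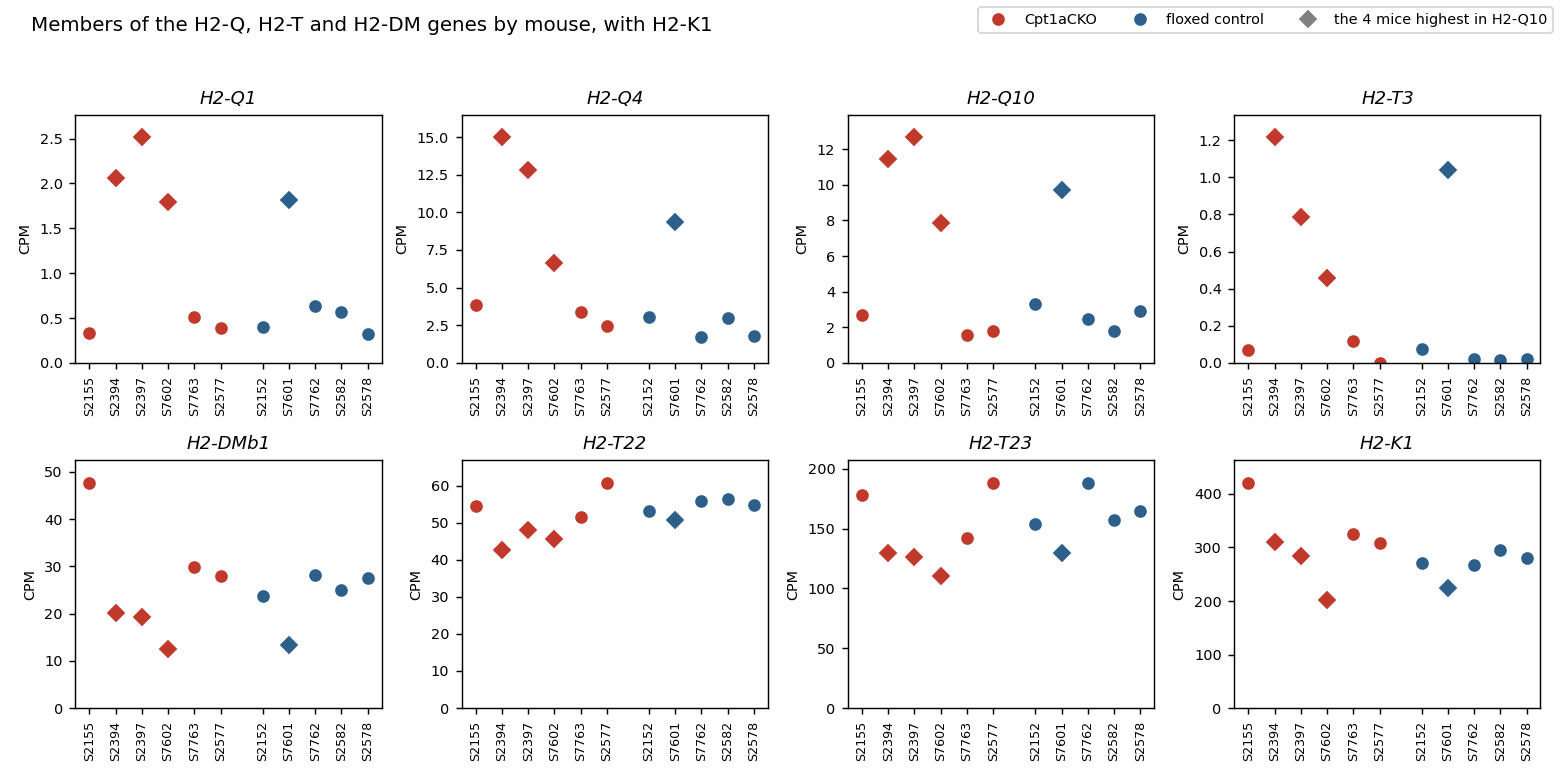
CPM in each mouse of 8 members, with Cpt1aCKO mice in red on the left and floxed control mice in blue on the right. Diamonds are the 4 mice with the highest *H2-Q10*, which are also the highest for *H2-Q1*, *H2-Q4* and *H2-T3* and the lowest for *H2-DMb1*, *H2-T22* and *H2-T23*, with no such order in *H2-K1*.

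The set of 4 mice was read from *H2-Q10* after its values were seen, so its extent is given as a description. These 4 mice were all the highest or all the lowest for 6 of 31 tested members, *H2-Q10* included, and for 382 of all 18160 genes (2.10%). Within the span of the chromosome 17 members (chr17:33915899-37483552, GENCODE M21, GRCm38), they were so for 14 of 137 tested genes (10.2%), and on the rest of chromosome 17 for 19 of 670 (2.84%). Of the 111 tested genes in the span that are not members, 8 showed it (7.21%). They include *H2-Bl*, a nonclassical class I gene left out of the members because it is not listed as protein-coding. *D17H6S53E* had 13.1, 14.5 and 15.9 CPM in Cpt1aCKO mice S7602, S2394 and S2397 and 14.5 CPM in floxed S7601, against 2.62 to 3.08 CPM in the other Cpt1aCKO mice and 2.47 to 3.07 CPM in the other floxed controls. The labels give a mixed background, without the strain makeup of each mouse, and whether the mice differ in MHC sequence was not tested.

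Across mice, levels of 4 of 6 class II genes and 3 of 6 peptide supply genes were correlated with those of *Nlrc5*. Each activator was compared with 15 members in log2 CPM over the 11 mice, 30 relations in all, with permutation p and Benjamini-Hochberg adjustment over the 30. Of these, 7 passed by Pearson's r, all with *Nlrc5*. They were *Cd74*, *H2-Aa*, *H2-Eb1*, *H2-Ab1*, *Psmb9*, *Tap2* and *Psmb8*, with r of 0.749 to 0.856. The class II genes *H2-DMa* (r 0.631, permutation p = 0.0375, adjusted 0.125) and *H2-DMb1* (r 0.144, permutation p = 0.673, adjusted 0.722) did not pass. For *Cd74*, r was 0.856 (permutation p = 0.00079, adjusted 0.0163) and Spearman's rho 0.845 (permutation p = 0.00196, adjusted 0.021). For *H2-Eb1* rho was 0.718 and did not pass (permutation p = 0.017, adjusted 0.0637). For the class I chains r with *Nlrc5* was 0.477 for *H2-K1*, 0.369 for *H2-D1* and 0.189 for *B2m* (permutation p = 0.138, 0.261 and 0.58, adjusted 0.296, 0.365 and 0.656). Their rho was 0.727, 0.555 and 0.409 (permutation p = 0.0146, 0.0808 and 0.215, adjusted 0.0627, 0.173 and 0.358). The difference between these r values was not tested.

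*Nlrc5* separated the genotypes, so the relations were also taken within genotype. Within the 6 Cpt1aCKO mice, r with *Nlrc5* was 0.963 for *H2-Ab1*, 0.958 for *H2-DMa* and 0.921 for *Tap2*, which passed after adjustment over the 30 (exact permutation p = 0.00139, 0.00139 and 0.00417, adjusted 0.0208, 0.0208 and 0.0417). For *Cd74*, *H2-Aa*, *Tap1*, *Psmb8*, *Psmb9* and *Psmb10* it was 0.882 to 0.966, with adjusted exact permutation p of 0.0556 each. The highest of these was *Psmb10* and the lowest *Tap1*. For *H2-Eb1* it was 0.606 (adjusted 0.298). For *H2-K1*, *H2-D1* and *B2m* it was 0.715, 0.640 and 0.654 (exact permutation p = 0.101, 0.161 and 0.179, adjusted 0.169, 0.227 and 0.234), above *H2-Eb1*. Of the 6 Cpt1aCKO mice, S2155 was the highest in *Nlrc5*, *H2-Ab1* and *H2-DMa*. S7602 was the lowest in *Nlrc5*, *H2-Ab1*, *H2-DMa* and *Tap2*. As at least 6 mice were required, no correlation was computed within Cpt1aCKO mice without either of them, or over the 5 floxed controls alone. Without S2152 and S7762, the mice farthest from the *Nlrc5* median, r over the remaining 9 mice was 0.540 for *H2-Eb1* and 0.669 to 0.773 for the other 6 genes. Over the same 9 mice it was 0.627 for *H2-K1*, 0.514 for *H2-D1* and 0.528 for *B2m*, close to *H2-Eb1*.

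*Ciita* had its highest r with *H2-DMa*, 0.646 (permutation p = 0.0325, adjusted 0.122, rho 0.564, permutation p = 0.0762, adjusted 0.173), and its r with *H2-Ab1*, *H2-Aa* and *H2-Eb1* was 0.548, 0.397 and 0.181 (permutation p = 0.082, 0.23 and 0.591, adjusted 0.205, 0.361 and 0.656). Within Cpt1aCKO mice these were 0.746, 0.848 and 0.696, and that with *Cd74* was 0.909, and none passed after adjustment (exact permutation p = 0.0833, 0.0319, 0.0792 and 0.0222, adjusted 0.147, 0.0799, 0.147 and 0.0606). The points share library depth and cell makeup.

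**Figure D5:**
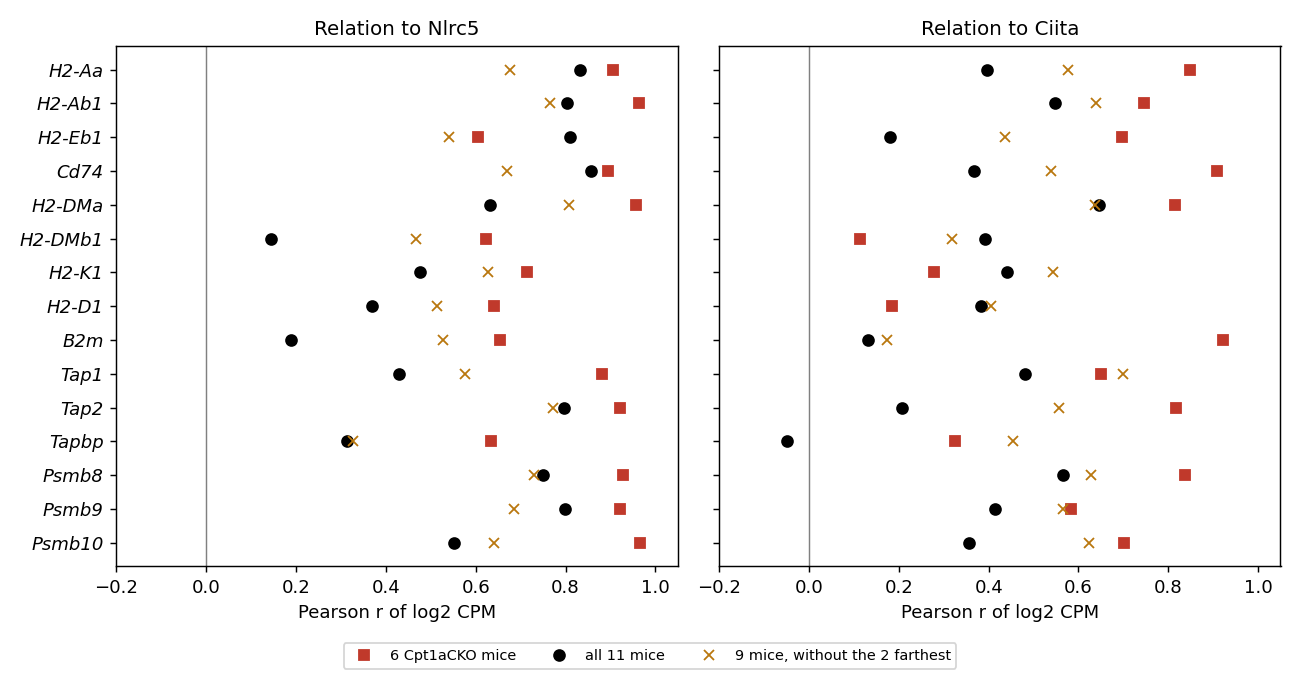
Pearson r of log2 CPM between *Nlrc5* (left) or *Ciita* (right) and 15 members, within the 6 Cpt1aCKO mice (squares), over all 11 mice (circles) and over 9 mice without the 2 farthest from the activator's median (crosses). Over all 11 mice r with *Nlrc5* reaches 0.856 for *Cd74*, and the highest r with *Ciita* is 0.646 for *H2-DMa*.

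Of 36 other genes of the pathway, 35 were tested, and 4 were higher and 1 lower in Cpt1aCKO mice at an unadjusted p under 0.05, against 3.35% higher and 2.57% lower among all genes, with a median log2 fold change of 0.04. *Ctss*, the protease that degrades the invariant chain, averaged 18.6 ± 4.78 CPM in Cpt1aCKO mice and 12.4 ± 3.15 CPM in floxed controls (log2 fold change 0.58, unadjusted edgeR p = 0.00981, exact permutation p = 0.0303). *Erap1*, which trims class I peptides, had a log2 fold change of 0.26, *Irf1*, an interferon-induced activator of class I genes, 0.29, and *Fcgrt*, the neonatal Fc receptor, 0.18 (exact permutation p = 0.026, 0.0628 and 0.026). *Nfya*, a subunit of the Y box factor, had -0.41 (exact permutation p = 0.039). *Rfx5*, which binds the X box, had 0.02 with an SE of 0.16. None passed after adjustment over all genes.

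Some markers of immune cells were also higher in Cpt1aCKO mice before adjustment over all genes. Among all genes, 3.35% were higher at an unadjusted p under 0.05 and 51.4% had a positive log2 fold change. Of 10 macrophage markers, 3 were higher in Cpt1aCKO mice at that threshold, *Itgam*, *C1qa* and *C1qb*. *Adgre1* (log2 fold change 0.22, SE 0.25) and *Csf1r* (-0.09, SE 0.10, the 1 negative of the 10) did not pass. The summed level was 183 to 330 CPM in Cpt1aCKO mice and 133 to 225 CPM in floxed controls. As with *Nlrc5*, the groups did not overlap for *C1qa*, *Itgam* and *Cd4*, the T cell marker below (0.341% of all genes were higher without overlap). *C1qa* had 15.8 to 25.4 CPM in Cpt1aCKO mice and 10.1 to 14.7 CPM in floxed controls. *Itgam* had 0.223 to 0.544 CPM in Cpt1aCKO mice and 0.0495 to 0.178 CPM in floxed controls (log2 fold change 1.83, SE 0.47). Its level rested on 2 to 29 reads per library. *Cd4* had 0.579 to 2.42 CPM in Cpt1aCKO mice and 0.255 to 0.539 CPM in floxed controls (log2 fold change 1.63, SE 0.39). None of 7 dendritic cell markers and none of 5 tested B cell markers passed, with sums of 9.31 to 17.3 and 1.27 to 15.2 CPM in Cpt1aCKO mice and 11 to 15.5 and 1.46 to 7.18 CPM in floxed controls. Of 7 tested T and NK cell markers 1 passed, *Cd4*, and sums were 4.16 to 17.2 CPM in Cpt1aCKO mice and 4.36 to 5.54 CPM in floxed controls. No listed marker was at 0 in all mice. Mouse S2397, with the highest class II sum (644 TPM), also had the highest macrophage, B cell, and T and NK cell sums and the highest *Ptprc*, the marker of all leukocytes, at 11.2 CPM. Cpt1aCKO mouse S2155 had nearly the same class II sum (637 TPM). Its B cell sum, 1.27 CPM, was the lowest of all mice, and its *Ptprc*, 4.77 CPM, the lowest of the Cpt1aCKO mice. None of the markers of endothelium (5), proximal tubule (5) and podocytes (2) passed. Of 3 markers of the thick ascending limb and distal tubule, 2 were lower in Cpt1aCKO mice at an unadjusted p under 0.05, against 2.57% of all genes. They were *Umod* and *Slc12a3*, with log2 fold changes of -0.23 and -0.22 and adjusted edgeR p of 0.7545 and 0.8386. The part of cell makeup in the class II and *Nlrc5* values was not tested. Of 12 interferon-responsive genes all had a positive log2 fold change and 1 passed, *Igtp* (0.53, unadjusted edgeR p = 0.0309, exact permutation p = 0.0887), with sums of 90.9 to 167 CPM in Cpt1aCKO mice and 92.8 to 138 CPM in floxed controls.

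The remaining 13 members were not tested for want of reads. They were *H2-T3*, described above, the class II gene *H2-Eb2*, with 3 to 17 reads in Cpt1aCKO mice and 2 to 8 in floxed controls, and 11 genes of the H2-M group, several of which are best known from the vomeronasal organ. *H2-M11* had 0 reads in every library. *H2-M9* had 9 reads in mouse S7602 and 0 in the other 10 libraries, and *H2-M10.6* 4 reads in S7602 alone.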

How the data were processed

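Renal cortex RNA (kidney in the labels) of 6 Cpt1aCKO and 5 floxed control mice was sequenced after TruSeq stranded mRNA preparation. The authors aligned reads with STAR 2.7.3a and deposited raw counts per gene from HTSeq. Of the counting, neither version nor strand setting was given in the sources used here, nor was a genome build or annotation, and 99.66% of gene identifiers were found in GENCODE M21, which gave positions and exon lengths. The deposited normalized values, fold changes and p-values, which are the authors' own DESeq2 comparison, and their shrunken version were not used, nor were Cufflinks 2.2.1 values.

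Groups followed the labels. Labels name individual mice but no litters or batches, so mice were analyzed unpaired. After filterByExpr (18160 genes kept) and TMM scaling, all 11 libraries entered a robust quasi-likelihood fit in edgeR 4.0.16 (R 4.3.3), with p adjusted by Benjamini-Hochberg over all genes and thresholds of 0.05. CPM used TMM-scaled library sizes, log2 CPM a prior count of 2, and TPM the summed exon length. Single genes were also tested by a two-sided exact permutation test over 462 splits (smallest p 0.00216), and correlations by 100000 permutations (all 720 pairings within Cpt1aCKO mice). Alternatives were DESeq2 1.42.0, limma 3.58.1 (weighted voom), edgeR without the robust option, other scalings, other filters, a covariate (1 surrogate variable from sva 3.50.0, or the S2 or S7 series of mouse numbers), and each mouse left out. The script was tested on simulated data. Libraries held 39628721 to 57459929 counted reads. Precision was poor for members under about 1 CPM, and also for members that varied widely between mice, such as *H2-Q10* (SE 0.65).

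The members and lists were chosen with earlier results of these data known. Any member could be named, with values per mouse for the main chains, activators and subunits, the 6 members of smallest p, the 4 of largest spread and those without overlap. The class pairs, the within-genotype correlation p and the set of 4 mice were added after values were seen. Promoters were those of RefSeq (GRCm38.p6).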

Additional observations from a re-analysis of the deposited data

Results flagged for a closer look

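A mouse stood apart from the rest of its group in 8 of 72 groups of values checked, against about 3.6 (1 in 20) for normally distributed values. The groups were not independent, as *H2-Q1*, *H2-Q4* and *H2-Q10* were high in the same mice, and an excess over chance was not tested. Floxed mouse S7601 lay above the other floxed controls for *H2-Q1* (1.81 CPM, the next mouse 0.637 CPM), *H2-Q4* (9.34 CPM, the next 3.02 CPM), *H2-Q10* (9.73 CPM, the next 3.29 CPM) and *Tap2* (31.5 CPM, the next 27.9 CPM). Floxed mouse S2578 had 52.5 CPM of *H2-Q6*, the next 37.5 CPM. Cpt1aCKO mouse S2397 had 186 CPM of *H2-Eb1*, the next 115 CPM, and 2.14 CPM of *H2-Ob*, the next 0.98 CPM. Cpt1aCKO mouse S7602 had the lowest *Tapbp* of its group, 130 CPM, the next 176 CPM.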

How the results depend on the processing

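No paired analysis was possible because the labels give no litters, pairs or replicate numbers, although the study speaks of littermates, so which mice shared a litter is unknown. The count of members higher at an unadjusted p under 0.05 was 7 to 9 over all other tools, filters, normalizations and covariates, against 9, and 3 to 13 with single mice left out. The count of class II genes was 1 to 6 with single mice left out and 3 with no filter, and that of class I heavy chains 0 to 2 and 1 (*H2-M9*), against 6 and 0. DESeq2 called 1 member at an adjusted p under 0.05, and 31 genes higher and 18 lower in all, against 2 and 1 by edgeR. Unadjusted calls over all genes were 609 higher and 467 lower, against 2482 and 1056 with no filter, 962 and 751 without Cpt1aCKO S2577 and 487 and 312 without floxed control S2578. The log2 fold change turned negative with single mice left out for *Ciita* (-0.0698 to 0.16), *H2-DMb1* (-0.10 to 0.30), *H2-Oa* (-0.21 to 0.41) and *H2-Ob* (-0.22 to 0.55), and with voom for *H2-DMb1* (-0.0045). The r of *Ciita* with *Tapbp*, -0.05, became 0.023 with library sizes alone and 0.455 without the 2 farthest mice. The cause of these changes was not tested, and fewer mice enter each fit with a mouse left out.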
